A study of Homo sapiens with 12 samples.

Results

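The interleukin-1 family and its receptors are described here as 10 genes of the 29744 gene rows in the deposited count table: the ligands IL1A, IL1B, IL18, IL33 and IL36G, the antagonist IL1RN, and the receptor chains IL1R1, IL1R2, IL1RAP and IL1RL1. They were taken by gene name. The list was chosen from levels measured in these same libraries, so their values are a description and no p-value is given for any of them. RNA-seq was done on 12 libraries of MB157, an established triple-negative breast cancer (TNBC) cell line whose NOTCH1 gene carries a deletion that makes the receptor ligand-independent. There were 3 libraries in each of 4 groups: MB157 with a doxycycline-inducible empty vector (MB157 iEV), MB157 with inducible SOX2 (MB157 iSOX2), GSI-resistant MB157R with the empty vector (MB157R iEV), and MB157R with inducible active NOTCH1 (MB157R iN1-ICD). MB157R is MB157 kept for 25 weeks in 1 µM of the γ-secretase inhibitor LY3039478 (GSI), which stops the release of the NOTCH1 intracellular domain. Cells of all 4 groups, controls included, carried a lentiviral vector and received 1 µg/ml of doxycycline for 72 h. The N1-ICD construct encodes a NOTCH1 without its extracellular part. The sources used here do not say whether MB157R cells were in GSI at harvest or whether MB157R is 1 clone.

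Cytokines of this family are alarm signals of epithelia and myeloid cells. IL1A and IL1B bind the receptor IL1R1, which recruits the shared accessory chain IL1RAP and signals through MYD88, IRAK kinases and TRAF6 to NF-kB. IL1RN binds IL1R1 without recruiting IL1RAP and so blocks it, while IL1R2 is a decoy that binds the ligands and has no signalling domain. IL33 uses IL1RL1 with IL1RAP, IL36G uses IL1RL2 with IL1RAP, and IL18 has its own receptor pair. IL1B and IL18 are made as precursors that caspase-1 cleaves, IL1A is cut by calpain, and RNA does not report these steps.

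Levels are given as CPM, counts set against library size, scaled by TMM, a factor that aligns libraries on the bulk of their genes. Libraries held 32773816 to 49055204 counts, and 3 counts over the 3 libraries of a group correspond to 0.0227 to 0.0256 CPM, the floor that turns a fold into a lower bound for a group without counts (counting error only). Genes were compared by edgeR's quasi-likelihood test and called higher or lower where the p adjusted by Benjamini-Hochberg was under 0.05. The introduced genes followed their labels: SOX2 was higher in MB157 iSOX2 (log2 fold change 5.43, standard error 0.06) and NOTCH1 in MB157R iN1-ICD (4.66, standard error 0.15). These counts are per gene, so RNA of the introduced and the resident NOTCH1 or SOX2 was not separated. The cells are epithelial in origin, and all 5 epithelial markers (EPCAM, KRT8, KRT18, KRT19, CDH1) were above 1 CPM in every group. Replicate numbers were not stated to mark separate cultures in the labels, so any p-value measures the spread between these libraries.

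Of the 10 genes, 7 lie in 2 clusters on chromosome 2 of GRCh38, and IL1RAP (chromosome 3, 190514085 to 190659750), IL18 (chromosome 11, 112143260 to 112164094) and IL33 (chromosome 9, 6215149 to 6257983) lie elsewhere. The ligand cluster spans 360.1 kb, from IL1A (112773925 to 112784493, minus strand, 7 exons) over IL1B (112829751 to 112836779, minus strand, 7 exons) and IL36G (112978006 to 112985658, plus strand, 5 exons) to IL1RN (113099360 to 113134014, plus strand). The receptor cluster spans 460.6 kb and holds IL1R2 (101991960 to 102028544), IL1R1 (102070390 to 102179874) and IL1RL1 (102311563 to 102352356), all on the plus strand.

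The 250 bases before an annotated start of the 4 chromosome 2 ligand and antagonist genes are shown because these genes share 1 cluster and were at or near 0 in the parental cells. They are RefSeq sequence of GRCh38.p14, on the strand of the gene, with matches to 4 short motifs in capitals.

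IL1A, chr2:112784494-112784743, minus strand: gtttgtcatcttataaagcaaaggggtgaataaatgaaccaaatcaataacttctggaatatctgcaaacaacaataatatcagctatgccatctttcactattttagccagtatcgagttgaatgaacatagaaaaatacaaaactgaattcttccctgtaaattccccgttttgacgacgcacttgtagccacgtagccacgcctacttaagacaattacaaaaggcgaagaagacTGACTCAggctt

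IL1B, chr2:112836780-112837029, minus strand: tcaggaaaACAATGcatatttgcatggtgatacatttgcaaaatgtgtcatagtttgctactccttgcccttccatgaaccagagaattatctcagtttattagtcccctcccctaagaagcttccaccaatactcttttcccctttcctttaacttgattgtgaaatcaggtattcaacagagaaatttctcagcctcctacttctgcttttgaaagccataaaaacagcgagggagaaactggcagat

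IL36G, chr2:112977756-112978005, plus strand: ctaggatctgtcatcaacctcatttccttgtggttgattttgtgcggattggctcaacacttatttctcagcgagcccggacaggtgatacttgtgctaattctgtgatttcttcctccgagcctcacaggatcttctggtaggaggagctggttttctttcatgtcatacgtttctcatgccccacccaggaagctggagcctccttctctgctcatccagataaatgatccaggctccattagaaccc

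IL1RN, first start, chr2:113117721-113117970, plus strand: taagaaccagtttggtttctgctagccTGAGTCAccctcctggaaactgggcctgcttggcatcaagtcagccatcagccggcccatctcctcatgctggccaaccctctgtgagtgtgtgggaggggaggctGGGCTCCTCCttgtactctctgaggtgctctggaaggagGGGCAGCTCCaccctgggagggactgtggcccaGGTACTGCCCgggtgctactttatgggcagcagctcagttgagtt

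IL1RN, second start, chr2:113127239-113127488, plus strand: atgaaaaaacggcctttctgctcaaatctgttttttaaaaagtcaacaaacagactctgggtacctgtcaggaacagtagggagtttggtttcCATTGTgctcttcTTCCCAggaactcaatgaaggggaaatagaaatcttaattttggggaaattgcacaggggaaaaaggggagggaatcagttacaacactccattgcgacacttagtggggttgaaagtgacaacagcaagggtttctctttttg

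The motifs, searched on both strands, were TGANTCA (AP-1), TGGGAA (core of RBPJ, the DNA-binding partner of N1-ICD), CATTGT (SOX type) and, for NF-kB, GGG followed after any 5 bases by CC. IL1A held an AP-1 match close to its start. IL1B held only a SOX-type match, and IL36G none of the 4. IL1RN held an AP-1 and 3 NF-kB matches in the first window shown, and neighbouring SOX-type and RBPJ matches in the second. A further IL1RN window, 113127348 to 113127597, overlapped with the second and is not shown. It held 1 NF-kB match. The gene begins at 113099360, before all of these windows. A further IL1A window, 112784401 to 112784650, is not shown either and held 2 AP-1 matches, including the one shown. Over all 35116 such RefSeq windows, 6.57% held the AP-1 letters, 20.8% the RBPJ core, 9.29% the SOX-type letters and 54.4% the NF-kB letters. Of the 18 windows of the 9 genes with an entry, 4, 2, 4 and 5 held them, and windows of 1 gene can overlap. A match is a run of letters, and binding was not measured here.

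IL1A, which acts both as a secreted cytokine and in the nucleus, had no count in any of the 3 MB157 iEV or the 3 MB157 iSOX2 libraries. In MB157R iEV it stood at 505, 499 and 542 CPM, and in MB157R iN1-ICD at 649, 663 and 677 CPM. The levels fell into 3 steps without overlap, with MB157R iEV at least 20200-fold higher than MB157 iEV. N1-ICD added 1.29-fold on top of that (log2 fold change 0.40, standard error 0.04).

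IL1B, the inducible cytokine of the inflammasome pathway, gave 2 counts over the 3 MB157 iEV libraries, both in replicate 2, and 2 over the 3 MB157 iSOX2 libraries. Its levels were 546, 520 and 607 CPM in MB157R iEV and 970, 1023 and 1015 CPM in MB157R iN1-ICD. The ratio of summed counts between MB157R iEV and MB157 iEV was 32850, with an exact 95% counting interval from 9094 to 271300. It rests on MB157 iEV replicate 2, without which no count was left and the fitted log2 fold change went from 14.70 to 17.45, a value that depends on the prior count and is no bound. With N1-ICD the mean rose from 557 ± 44.5 to 1003 ± 28.6 CPM (SD, n = 3), or 1.80-fold, and the libraries did not overlap (log2 fold change 0.88, standard error 0.05). Both interleukin-1 agonists were thus near or at 0 in the parental line with or without SOX2, and abundant in the resistant line.

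IL36G, an epithelial cytokine of skin and airway, had no count in MB157 iEV and 2 counts over the MB157 iSOX2 libraries. In MB157R iEV it reached 19.4, 16.9 and 19.8 CPM, at least 733-fold above MB157 iEV. In MB157R iN1-ICD it reached 190, 183 and 210 CPM. This was a 10.4-fold difference from 18.7 ± 1.57 to 194 ± 14.2 CPM (SD, n = 3; log2 fold change 3.41, standard error 0.07), the largest that N1-ICD gave among the 10 genes.

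IL18, which most epithelia make without a stimulus, was low but present in MB157 iEV, at 0.121, 0.117 and 0.145 CPM (15 counts in all). MB157 iSOX2 libraries had 0.144, 0.242 and 0.244 CPM, which overlapped with MB157 iEV. The level was 50.8, 50.6 and 56.9 CPM in MB157R iEV, 414-fold higher than in MB157 iEV (log2 fold change 8.60, standard error 0.13), and 57.8, 63.3 and 58.8 CPM in MB157R iN1-ICD. N1-ICD libraries lay above the MB157R iEV libraries by 1.14-fold only (log2 fold change 0.22, standard error 0.06).

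IL33, the nuclear alarmin whose receptor is IL1RL1, was at the limit of detection throughout. Its summed counts were 3 in MB157 iEV, 8 in MB157 iSOX2, 4 in MB157R iEV and 0 in MB157R iN1-ICD. No difference was detectable at this depth, and IL33 was tested in none of the comparisons.

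IL1RN, the receptor antagonist, had 0.0904, 0 and 0.193 CPM in MB157 iEV (11 counts) and 0.0719, 0.0220 and 0 CPM in MB157 iSOX2 (4 counts), with overlap. It was present in MB157R iEV at 6.54, 6.41 and 5.94 CPM and in MB157R iN1-ICD at 32.8, 37.2 and 33.7 CPM. MB157R iEV was 66.7-fold above MB157 iEV (log2 fold change 5.96, standard error 0.34). That value rested on few counts: it was 7.15 without MB157 iEV replicate 3 and 5.33 without MB157 iEV replicate 2. The rise with N1-ICD was 5.50-fold, from 6.30 ± 0.317 to 34.6 ± 2.33 CPM (SD, n = 3; log2 fold change 2.49, standard error 0.08). Secreted and intracellular forms of IL1RN come from 1 gene and share its counts.

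IL1R1, the signalling receptor of IL1A and IL1B, was the only one of the 10 genes above 10 CPM in parental cells. Its levels were 13.2, 13.0 and 13.0 CPM in MB157 iEV and 13.96, 12.8 and 13.3 CPM in MB157 iSOX2, with overlap. They were 37.5, 34.2 and 38.0 CPM in MB157R iEV, 2.79-fold higher than in MB157 iEV (log2 fold change 1.42, standard error 0.06). In MB157R iN1-ICD they were 155, 141 and 168 CPM, a further 4.22-fold (log2 fold change 2.11, standard error 0.06). After SOX2 the log2 fold change was 0.03 (standard error 0.06), which was not called.

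IL1RAP, the accessory chain shared by the receptors of IL-1, IL-33 and IL-36, had the one clear upward difference with SOX2. It stood at 2.47, 2.13 and 2.56 CPM in MB157 iEV and at 4.39, 4.48 and 4.99 CPM in MB157 iSOX2, 1.94-fold higher and without overlap. MB157R iEV had 55.0, 55.5 and 55.4 CPM, a 23.2-fold difference from MB157 iEV (log2 fold change 4.47, standard error 0.07). MB157R iN1-ICD had 54.4, 54.9 and 56.5 CPM, which overlapped with MB157R iEV (log2 fold change 0.03, standard error 0.04).

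IL1R2, the decoy receptor, was low in every group and moved opposite to IL1RAP with SOX2. Its level was 1.08, 0.913 and 0.916 CPM in MB157 iEV and 0.312, 0.329 and 0.532 CPM in MB157 iSOX2, 2.48-fold lower and without overlap, on 113 and 52 counts. In MB157R iEV it was 5.08, 5.68 and 6.26 CPM, 5.84-fold above MB157 iEV (log2 fold change 2.49, standard error 0.16). In MB157R iN1-ICD it was 8.33, 9.99 and 10.0 CPM, 1.66-fold above MB157R iEV and without overlap (log2 fold change 0.77, standard error 0.11).

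IL1RL1, the receptor of IL33, had no count in either MB157 group. It had 14.2, 15.0 and 20.4 CPM in MB157R iEV, at least 653-fold more than in MB157 iEV, and 23.2, 31.4 and 19.2 CPM in MB157R iN1-ICD. The MB157R groups overlapped, with means of 16.5 ± 3.35 and 24.6 ± 6.21 CPM (SD, n = 3). The log2 fold change with N1-ICD was 0.60 (standard error 0.17). It was called, but not without MB157R iEV replicate 1, where it was 0.51, and it was 0.38 without MB157R iN1-ICD replicate 2. Membrane and soluble forms of this receptor share the gene's counts.

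Set against the whole table, 9 of the 10 genes were in the 11435 genes tested between MB157R iEV and MB157 iEV, and all 9 were called higher, where 45.0% of the genes tested were called higher and 45.3% lower. Of these 9, 6 had at most 15 counts in MB157 iEV and entered the comparison through MB157R, where they were high, so the count of 9 supports nothing by itself. With SOX2 only IL1R1 was among the 10904 genes tested, where 32.5% were called higher and 33.9% lower. When genes with a mean count of at least 5 were tested instead, IL1RAP was called higher (log2 fold change 0.96, standard error 0.13), IL1R2 lower (-1.30, standard error 0.31), and IL18 was not called (0.71, standard error 0.52). With N1-ICD 9 were among the 11210 genes tested and 8 were called higher, all but IL1RAP, against 29.8% called higher and 29.3% called lower over the table. As the 10 genes were chosen from levels in these libraries, this count supports nothing by itself either. MB157R iEV libraries served in 2 of these comparisons, as did MB157 iEV libraries. Measured from parental MB157 iEV, the level in MB157R iN1-ICD was 366-fold higher for IL1RN, 11.8-fold for IL1R1, 9.72-fold for IL1R2, 23.2-fold for IL1RAP and 471-fold for IL18.

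**Figure D1:**
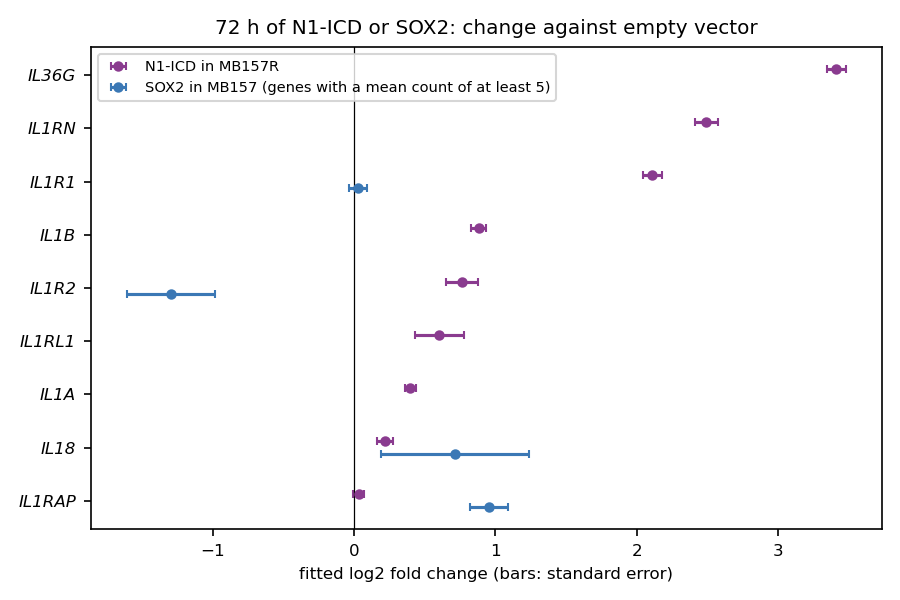
Fitted log2 fold change with its standard error against the empty vector, for N1-ICD in MB157R (9 genes) and SOX2 in MB157 (the 4 genes with a mean count of at least 5 there). IL36G, IL1RN and IL1R1 lie above 2 with N1-ICD and IL1RAP at 0.03, while with SOX2 IL1R2 lies at -1.30, IL1RAP at 0.96 and IL1R1 at 0.03.

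Ligands, antagonist and receptors changed in unequal measure, which ratios of CPM per kilobase of the canonical transcript (GENCODE 44) show within each library. In MB157R iEV the order of levels per kilobase ran from IL1B at 369.9 ± 29.5 CPM per kb and IL1A at 255 ± 11.5 over IL18 at 47.3 ± 3.19, IL36G at 15.4 ± 1.29 and IL1RAP at 11.7 ± 0.0598 to IL1R1 at 7.05 ± 0.403 (SD, n = 3). IL1RL1 at 8.28 ± 1.68 CPM per kb lay within its spread of IL1R1, and IL1R2 at 3.88 ± 0.403 and IL1RN at 3.69 ± 0.186 did not differ beyond theirs. In MB157R iN1-ICD the order was IL1B at 665 ± 18.9 CPM per kb, IL1A at 329 ± 6.92, IL36G at 161 ± 11.7, IL18 at 53.8 ± 2.64 and IL1R1 at 29.8 ± 2.63, with IL1RN at 20.3 ± 1.37 ahead of IL1RL1 and IL1RAP.

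The antagonist stayed scarce beside its agonists. For every 100 units of IL1A and IL1B together there were 0.627, 0.635 and 0.519 units of IL1RN in MB157R iEV and 1.996, 2.17 and 1.96 in MB157R iN1-ICD. IL1RN thus rose relative to the agonists with N1-ICD in all 3 libraries and remained a small share of them. IL1B gained on IL1A, from 145 ± 5.21 to 203 ± 3.61 per 100 (SD, n = 3).

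Receptor ratios changed too. Per 100 units of IL1R1, IL1RAP stood at 19.9 ± 1.82 in MB157 iEV, 37.8 ± 3.31 in MB157 iSOX2, 166 ± 10.3 in MB157R iEV and 39.3 ± 3.03 in MB157R iN1-ICD (SD, n = 3). Transcripts of the accessory chain outnumbered those of IL1R1 in MB157R iEV alone. The decoy IL1R2 stood at 26.3 ± 2.42 per 100 of IL1R1 in MB157 iEV, 10.4 ± 3.31 in MB157 iSOX2, 55.1 ± 6.19 in MB157R iEV and 21.8 ± 3.08 in MB157R iN1-ICD. Both ratios were highest in MB157R iEV, and their libraries there did not overlap with those of any other group.

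The neighbours in both clusters were read from the table whatever their level. All 9 coding genes between IL1A and IL1RN were in it, and none exceeded 0.2 CPM in any MB157 iEV library. In MB157R iEV only IL1A, IL1B, IL36G and IL1RN exceeded 1 CPM. IL36RN, the antagonist of the IL-36 receptor, was 0.313 ± 0.105 CPM in MB157R iEV and 14.5 ± 1.17 CPM in MB157R iN1-ICD, 46.4-fold higher (log2 fold change 5.54, standard error 0.17, adjusted p = 1e-09). At under 1 CPM in MB157R iEV, IL36RN could pass a filter on low values through MB157R iN1-ICD alone. IL36A, IL36B and IL37 stayed under 1 CPM in every library. With genes of a mean count of at least 5 tested, these 3 were called higher with N1-ICD too, at means of 0.661, 0.745 and 0.685 CPM. They could pass that filter through MB157R iN1-ICD alone, so these calls support nothing by themselves. IL36A was 12.5-fold and IL37 7.28-fold higher than in MB157R iEV, on 7 and 12 counts there, and IL36B, with no count there, was at least 31.9-fold higher. The 9 genes were thus all near or at 0 in parental cells, and 5 of them exceeded 1 CPM with N1-ICD.

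In the receptor cluster, IL18R1, the ligand-binding chain for IL18, rose from 0.375 ± 0.197 CPM in MB157 iEV to 29.8 ± 3.45 CPM in MB157R iEV (log2 fold change 6.30, standard error 0.18, adjusted p = 1.1e-12) and was 31.0 ± 2.95 CPM in MB157R iN1-ICD. At under 1 CPM in MB157 iEV, IL18R1 could pass a filter on low values through MB157R alone. IL1RL2, the receptor of IL36G, gave 3 counts in MB157 iEV and 4.33 ± 0.837 CPM in MB157R iEV, and N1-ICD raised it to 8.46 ± 0.291 CPM (log2 fold change 1.00, standard error 0.13, adjusted p = 8.9e-05). IL18RAP, the accessory chain of the IL18 receptor, was 1.36 CPM in MB157R iEV and 1.92 CPM in MB157R iN1-ICD on average, and had no count in MB157 iEV. Of the 6 receptor genes of the cluster, IL1R1 and IL1R2 were the only ones near or above 1 CPM in parental cells.

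The rest of the pathway was read from lists written with earlier results for IL1A, CXCL2, NLRP2 and MMP1 known, so the values of CXCL2 and MMP1 below are a description. Of the 6 other receptor genes, 3 were tested between MB157R iEV and MB157 iEV, where 45.0% of all genes tested were higher and 45.3% lower. IL18R1 and IL1RAPL2, a neuronal member of the receptor family, rose. Both were under 1 CPM in MB157 iEV and could pass a filter on low values through MB157R alone, so this count supports nothing by itself. SIGIRR, an inhibitory receptor, did not pass, at 23.7 ± 2.36 against 22.5 ± 1.73 CPM. IL1RAPL2 had no count in MB157 iEV and 6.59, 6.79 and 7.90 CPM in MB157R iEV, at least 279-fold more, and with N1-ICD it fell to 2.03 ± 0.319 CPM (log2 fold change -1.77, standard error 0.14, adjusted p = 2.2e-06). Among the 6 other ligands and antagonists, IL18BP, which neutralizes IL18, was tested in all 3 comparisons and called in none, at means of 3.17 CPM in MB157 iEV, 3.08 in MB157 iSOX2, 3.51 in MB157R iEV and 3.81 in MB157R iN1-ICD.

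Of 22 signalling genes, 21 were tested between MB157R iEV and MB157 iEV, of which 10 were higher, 9 lower and 2 not called, against 45.0% higher and 45.3% lower over all genes tested (median log2 fold change 0.05, against 0.00). IRAK2, a kinase-like adaptor that sustains the signal, rose from 7.20, 8.17 and 7.67 CPM to 757, 754 and 842 CPM (log2 fold change 6.61, standard error 0.06, adjusted p = 7.9e-17). PELI2, a ubiquitin ligase acting on IRAK proteins, rose by 9.91 on the log2 scale (standard error 0.16, adjusted p = 4.7e-15). PELI2 had only 5 counts over the MB157 iEV libraries, under 1 CPM, and could pass a filter on low values through MB157R alone. Its relative PELI1 fell by 1.52 and UBE2V1, a partner of TRAF6 in ubiquitin chain formation, by 0.86 on the log2 scale. With N1-ICD 5 were higher, 5 lower and 11 not called, against 29.8% and 29.3% over the table. PELI1 (0.74) and IRAK2 (0.65) rose, and IRAK1 (-0.38) and UBE2N (-0.32), another partner of TRAF6, fell on the log2 scale. With SOX2 20 were tested, with 6 higher, 4 lower and 10 not called, against 32.5% and 33.9%. There IRAK4, the first kinase of the pathway, rose by 1.00 on the log2 scale (standard error 0.06, adjusted p = 5.3e-10) and TAB3, which tethers the kinase TAK1, by 0.68, while PELI1 fell by 0.46 and NFKBIA, the inhibitor of NF-kB, by 0.42. These counts were near or below the shares over all genes, and nothing is read from them.

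The genes for cytokine processing and release numbered 15, of which 9 were tested between MB157R iEV and MB157 iEV, with 7 higher and 2 lower, where 45.0% and 45.3% of all genes tested were (median log2 fold change 1.22). NLRP3 and CASP1 were under 1 CPM in MB157 iEV and could pass a filter on low values through MB157R alone. The count and the median thus support nothing by themselves. NLRP3, a sensor of the inflammasome, rose from 2 counts over the MB157 iEV libraries to 13.1, 13.3 and 15.7 CPM (adjusted p = 1.5e-12), a ratio of summed counts of 827 with an exact 95% counting interval from 229 to 6833. CASP1, the protease that matures IL1B and IL18, rose from 0.362, 0.211 and 0.241 CPM to 7.20, 7.58 and 7.65 CPM (log2 fold change 4.74, standard error 0.19, adjusted p = 3.7e-11). CAPN1 and CAPN2, the catalytic subunits of the calpains, rose by 1.22 and 1.74 on the log2 scale (adjusted p = 3.7e-12 and 2.6e-14), while CAPNS1, their small subunit, fell by 1.23 and HAX1, a mitochondrial protein that binds IL1A, by 0.82. PYCARD, the adaptor between NLRP3 and CASP1, had no count in MB157 iEV and 0.0641 ± 0.0397 CPM in MB157R iEV. With N1-ICD 2 were higher, 6 lower and 1 not called, against 29.8% and 29.3% over the table, CASP1 reaching 12.8, 13.7 and 13.1 CPM (log2 fold change 0.85, standard error 0.08, adjusted p = 5e-06) and CASP4 falling by 0.39 and CAPN2 by 0.37. With SOX2 7 were tested, with 2 higher, 2 lower and 3 not called, against 32.5% and 33.9%, and the largest of the called differences was that of CAPN1, which fell by 0.30 on the log2 scale. CASP1 was not among these 7. With genes of a mean count of at least 5 tested it was called lower with SOX2 (log2 fold change -2.48, standard error 0.67), on 31 counts in MB157 iEV and 6 in MB157 iSOX2. CASP1 could pass that filter through MB157 iEV alone, so this call supports nothing by itself.

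Genes known to be induced by interleukin-1 in many cell types formed a list of 22, of which 17 were tested between MB157R iEV and MB157 iEV and all 17 were higher, where 45.0% of all genes tested were (median log2 fold change 8.51, also with the genes at 0 set to their lower bound). Of these 17, 9 were under 1 CPM in MB157 iEV and could pass a filter on low values through MB157R alone, so the count and the median support nothing by themselves. An untested gene of the list went the other way: TNFAIP6, a hyaluronan-binding protein, had 22 counts over the MB157 iEV libraries and none in MB157R iEV, at least 8.05-fold lower. With no filter 19 of the list were called higher and 1 lower, where 7487 genes of the whole table were called higher and 7914 lower. MMP1, a collagenase, and CSF2, a growth factor for granulocytes and macrophages, had no count in MB157 iEV and stood at 399 ± 18.2 and 153 ± 4.08 CPM in MB157R iEV (SD, n = 3), at least 15630-fold and 5991-fold higher. CXCL8, a neutrophil chemokine listed in the table as IL8, was outside the authors' filtered gene list. It had 0.844, 0.725 and 0.651 CPM in MB157 iEV, 627, 610 and 608 CPM in MB157R iEV and 2082, 2067 and 2198 CPM in MB157R iN1-ICD. With genes of a mean count of at least 5 tested, IL8 was called higher in MB157R iEV (log2 fold change 9.71, standard error 0.06, adjusted p = 1.9e-16) and with N1-ICD (1.79, standard error 0.04, adjusted p = 1.8e-10).

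With N1-ICD 18 of the response genes were tested, with 13 higher, 2 lower and 3 not called, beside 29.8% and 29.3% over the table (median log2 fold change 0.35, against 0.00). CXCL2, another neutrophil chemokine, rose from 64.8, 63.4 and 61.6 to 235, 220 and 246 CPM (log2 fold change 1.92, standard error 0.05, adjusted p = 2.1e-10). PTGS2, the inducible cyclooxygenase, rose from 173, 149 and 181 to 595, 660 and 563 CPM (log2 fold change 1.89, standard error 0.08, adjusted p = 7.7e-09). MMP1 fell by 0.77 and CSF3, a growth factor for granulocytes, by 0.47 on the log2 scale. TNFAIP6, outside the authors' gene list, had no count in MB157R iEV and 98 counts over the MB157R iN1-ICD libraries, at least 33.2-fold higher. With genes of a mean count of at least 5 tested, TNFAIP6 was called higher with N1-ICD, at a mean of 0.768 ± 0.163 CPM (SD, n = 3). It could pass that filter through MB157R iN1-ICD alone, so this call supports nothing by itself. With SOX2 6 were tested, where 32.5% of all genes tested were called higher and 33.9% lower. NFKBIZ, a nuclear NF-kB cofactor, rose (log2 fold change 1.20, standard error 0.10, adjusted p = 2.2e-08). LCN2, an iron-sequestering protein, fell by 1.33 and SOD2, a mitochondrial dismutase, by 0.19 on the log2 scale, and 3 were not called. With the 16397 genes of a mean count of at least 5 tested, 7 of the list were called with SOX2, 3 higher and 4 lower, and nothing is read from this count. PTGS2 rose most (log2 fold change 3.80, standard error 0.38, adjusted p = 5.3e-07), on 17 counts in MB157 iEV and 273 in MB157 iSOX2. CXCL1 also rose (1.68, standard error 0.31, adjusted p = 0.00023), on 50 and 179 counts. BIRC3 (-0.65) and LIF (-1.27) were called lower beside LCN2 and SOD2. These are genes that other stimuli also induce, and whether secreted interleukin-1 acted on these cells was not measured.

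**Figure D2:**
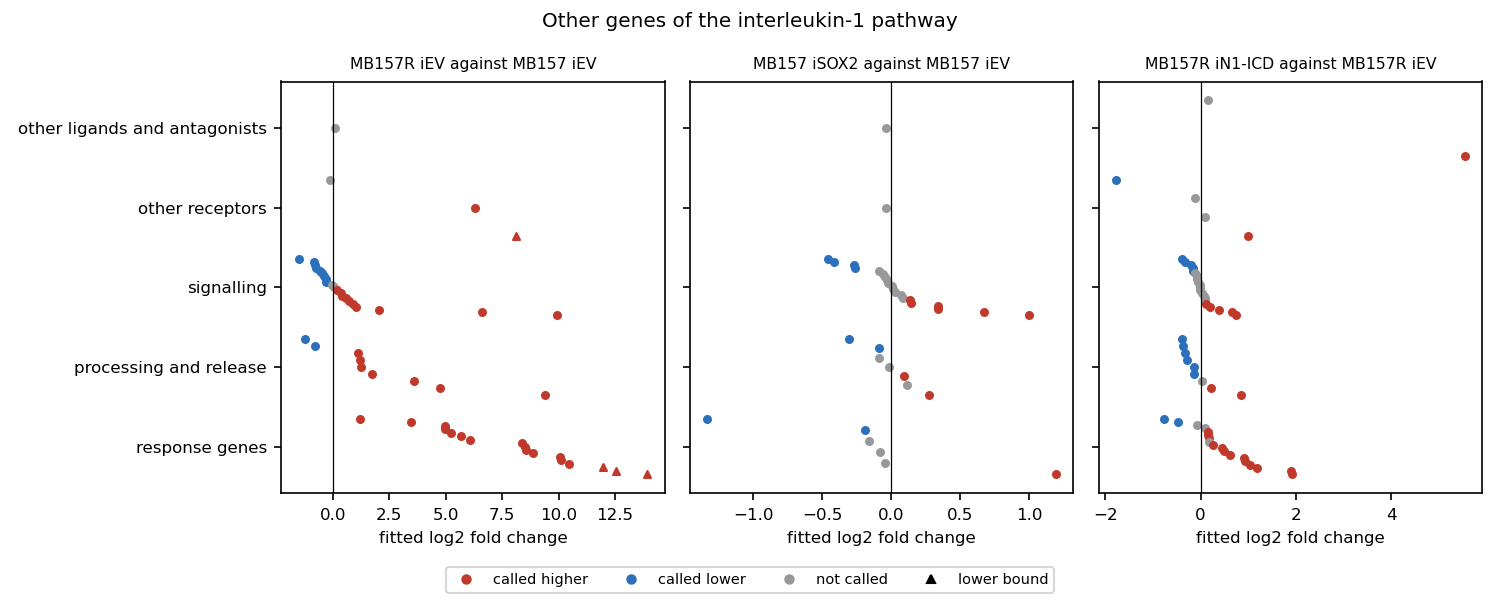
Fitted log2 fold change of each tested gene on the 5 lists of other pathway genes, by comparison, coloured by call, with triangles at the log2 of the lower bound for genes with no count in the control group. All 17 tested response genes lie to the right of 0 in MB157R iEV against MB157 iEV, signalling genes lie on both sides of 0 in all 3 comparisons, and IL36RN at 5.54 is the largest rise with N1-ICD.

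Genes most like each cytokine or receptor over the 12 libraries were ranked by Pearson r of log2(CPM + 0.5) among 15118 genes. Because 6 libraries are MB157 and 6 are MB157R, any gene that is off in one line and on in the other comes out close, and no p is given. IL1A was most like B2M (r = 0.99997), the light chain of MHC class I, TGM2 and HOXB9, which, like IL18's closest genes TGM2 and B2M, follow the step between the lines. IL1B was most like IRAK2 (r = 0.99968). IL1RN was most like KRT13 (r = 0.99878), a keratin of stratified epithelium, IL1R1 like PI3 (r = 0.99911), an elastase inhibitor of inflamed epithelium, and KRT6A, and IL36G like ABCA12 (r = 0.99899), a lipid transporter of the skin barrier. IL1RAP was most like SV2A (r = 0.99890) and NFKBIZ (r = 0.99887), the latter one of the genes that rose with SOX2, and IL1RL1 like PDZK1IP1 (r = 0.99933). IL1R2 was most like ENPP4 (r = 0.99757).

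Since the libraries are bulk RNA, a higher level in each cell and a larger share of expressing cells cannot be told apart. Markers of leukocytes, which also make these cytokines, were checked as a whole list of 10. Their summed level was 40.4 to 44.2 CPM in MB157 iEV, 11.7 to 13.8 in MB157 iSOX2, 4.89 to 6.33 in MB157R iEV and 16.8 to 18.1 in MB157R iN1-ICD. TYROBP and AIF1 had no count in any library. The marker sum was lowest in MB157R iEV, and the main contributors were CD14, CD68 and CSF1R. From MB157 iEV to MB157R iEV, CD14 fell from 36.8 ± 1.87 to 0.348 ± 0.0408 CPM (SD, n = 3). CSF1R fell from 2.68 ± 0.468 to 0.740 ± 0.0998 CPM. CD68 went the other way, from 2.225 to 4.361 CPM (log2 fold change 0.91, standard error 0.16, adjusted p = 0.00013). Between these groups the sum thus mostly followed CD14, and the source of the cytokine RNA was not tested. CD14 rose with N1-ICD (log2 fold change 3.05, standard error 0.23, adjusted p = 1.2e-06), as did CD68 (1.47, standard error 0.12, adjusted p = 1.8e-06), and the part of this in the N1-ICD differences above was not tested. Summed epithelial markers were 1900 to 1940, 1600 to 1640, 3760 to 3860 and 5230 to 6070 CPM in the same order of groups. The markers did not move together. In MB157R iEV against MB157 iEV, KRT8, KRT18 and KRT19 were called higher, and CDH1 (-0.91) and EPCAM (-0.48) lower on the log2 scale. With N1-ICD EPCAM was called lower (-0.19) and the other 4 higher. With SOX2 the 3 keratins were called lower, and CDH1 and EPCAM were not called.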

How the data were processed

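RNA-seq libraries were made by the authors with a stranded mRNA kit, mapped to hg38 with STAR and quantified with Salmon on the reverse strand. The gene annotation is not given in the sources used here. The authors deposited 1 table of estimated counts (expected counts per gene, not normalized) for 12 libraries, with 29744 rows of which 61 repeat a name. The authors also deposited 3 tables of log2 CPM for filtered genes (edgeR 3.42.4, voom of limma 3.56.2), whose log2 values were recomputed from the counts to within 5e-14. These served here only as lists of genes to test. The authors' filter on TPM, count and gene type cannot be repeated from the files, and it left out some well-detected genes, such as IL8.

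Estimated counts were rounded to whole numbers. Each of 3 comparisons was fitted on its 6 libraries with edgeR's quasi-likelihood test on 11435, 10904 or 11210 genes, with TMM factors and library sizes from all rows, without a replicate block (edgeR 4.0.16 in R 4.3.3). Benjamini-Hochberg adjustment ran over all genes tested. Printed levels were scaled by TMM over all 12 libraries (factors 0.947 to 1.05, genes with a mean count of at least 5), and folds are ratios of mean CPM. Where a group had no count the bound uses 3 counts over the group. Totals ranged from 32773816 to 49055204 counts with a median of 42836259, and replicates differed by more than sampling noise.

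The members and the lists were chosen with earlier results of these data known. Named genes were all 10 members, from each list the 2 called genes that rose most and the 2 that fell most, of those at 1 CPM or more on average, the 3 most like genes of each member, and the coding neighbours in the clusters. Part of these are named in the text. IL8, TNFAIP6, PYCARD, SIGIRR, IL18BP, CXCL1, BIRC3 and LIF were named after their values were seen. So were CASP1, PTGS2 and the calpains where the rule does not give them. CXCL8 and GSDME were matched through RefSeq synonyms. Gene positions and promoter windows are from RefSeq (GRCh38.p14), which had a promoter entry for 9 of the 10 members. Gene strands, exon numbers and transcript lengths are from GENCODE 44. The test was checked on simulated data. Alternatives were DESeq2 1.42.0, limma-voom (limma 3.58.1), RLE factors, scaling by library totals, testing all genes or those with 5 counts on average, 1 fit over 12 libraries, a replicate block, and leaving out each library.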

Additional observations from a re-analysis of the deposited data

How the results depend on the processing

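Over these alternatives the differences of the 10 genes called in the authors' gene lists kept their direction and call, with the one exception of IL1RL1 with N1-ICD, which was not called without MB157R iEV replicate 1 (log2 fold change 0.51). IL1RAP and IL1R2 with SOX2 are outside that list. In genes with a mean count of at least 5 their calls were rerun, as an alternative added after seeing the data, with DESeq2, limma-voom, RLE factors, all 12 libraries, the replicate block and without each library, and held in each, at log2 fold changes of 0.87 to 1.00 and -1.59 to -1.16 without 1 library, while IL18 was called in none. Counts of genes called over the whole table stayed within 1.5 times of the reported ones. What moved were counts on lists, with the set of genes tested. In MB157R iEV against MB157 iEV, other ligands and antagonists went from 0 called to 1 with a mean count of at least 5 and to 3 with no filter, and other receptors from 2 to 4 with each. Over the whole table, 7170 genes were called higher and 7334 lower there with a mean count of at least 5, and 7487 and 7914 with no filter. With SOX2, the members called went from 0 to 2 with each, and the response genes from 3 to 7 with each. With N1-ICD, other ligands and antagonists went from 1 to 4 with each. The wider filters test genes that the authors' list leaves out, which accounts for these additions, and nothing is read from them. The replicate numbers did not pair the libraries: the correlation of deviations between same-numbered libraries was 0.133, -0.123 and -0.0251 for MB157R against MB157 over 14273 genes and was negative in 4 of the other 6 pairs. With a replicate block 10250, 7019 and 6422 genes were called in place of 10318, 7237 and 6621, and 9, 0 and 8 members, as without it. Scaling by library totals alone moved the 22 levels of at least 1 CPM by at most 4.87%. Depth limits IL33 in every group and IL1RN, IL18 and IL1R2 in MB157.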
